A study of Mus musculus with 12 samples.

Results

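Germline and meiosis genes serve germ cells and are mostly silent elsewhere. They were examined for trimethylated lysine 9 of histone H3 (H3K9me3) in mouse embryonic stem cells with and without a working copy of Tex19.1. Levels of the mark are averages over the comparison and not those of either genotype. The list holds 42 genes for the piRNA pathway, the synaptonemal complex, meiotic cohesin, recombination and related functions, and a region was counted as a member when it overlapped the gene body extended by 5000 bp on each side. Of the 68291 regions in the authors' deposited table, 59 met this rule, and they lay at 29 of the 42 genes. Chromatin immunoprecipitation with sequencing had been done on cells derived from the E14Tg2a line on a 129/Ola background, at passages 12 to 20. Tex19.1+/- (heterozygous) and Tex19.1-/- (knockout) cells were compared, so the control cells carried 1 mutant allele. Each genotype had 3 immunoprecipitated and 3 input libraries, 12 in all, and the sources used here do not say whether a genotype was 1 clone or its libraries separate cultures, so the spread behind the p-values may be technical. In 6 of the 12 libraries the genotype field and the title name different genotypes, and groups follow the titles.

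The table holds a single comparison of the genotypes and no values of single libraries. Each region has its LogCPM, log2 fold change, p-value and FDR, which is the p-value adjusted over all regions. LogCPM is the averaged log2 of CPM, the counts of reads in a region relative to a total for each library. The CPM of all regions add up to 1.08e+06, close to the full scale of CPM. That total therefore appears to be the reads counted in the regions and not all reads of the library. A gain or loss of the mark shared by all regions would then not show in the log2 fold changes, and it was not tested. Which genotype was the reference is not stated, and signs are given as deposited. Depth per library and the spread between replicates are unknown here. An error for each log2 fold change was therefore read from the authors' p-values as the typical standard error of regions of like LogCPM, and the 95% intervals below rest on it. How far it includes the spread between replicates was not tested. A region was called when the authors' FDR was below 0.05. H3K9me3 does not report expression, so cell identity could not be read from it. A region lay at the start of 1 of 12 pluripotency genes, 0 of 8 early lineage genes and 0 of 4 fibroblast genes with a listed start.

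H3K9me3 is a mark of heterochromatin that is written by methyltransferases such as SETDB1 and read by HP1 proteins. In embryonic stem cells many germline genes are kept silent at their promoters by DNA methylation, by H3K9 methyltransferases and by a Polycomb complex that contains PCGF6, MGA, MAX, E2F6 and L3MBTL2. MGA and MAX bind the E-box, and E2F6 binds E2F sites. Tex19.1 is itself expressed in germ cells and pluripotent cells, and male mice without it have defects in meiosis.

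The mark lay at gene starts in many members. RefSeq promoter entries (GRCm38.p6, the assembly that mm10 names) give a start for 37 of the 42 genes, and 12 of these (32.4%) had a region within 500 bp of a start: Dazl, Ddx4, Tdrd7, Mov10l1, Fkbp6, Syce3, Tex12, Brdt, Taf7l, Slc25a31, Tex101 and Dpep3. By the same rule 489 of 17492 protein-coding genes (2.80%) had one. The listed start base itself was covered in 7 members (18.9%) and in 275 protein-coding genes (1.57%). Within 2000 bp the counts were 15 members (40.5%) and 1061 genes (6.07%). No test was made of these shares. The members without a promoter entry were Piwil2, Tdrd6, Spo11, Tex11 and Tex15. A listed start can lie inside the gene body. This was so at Ddx4, Fkbp6 and Rad21l, where a region covered the upstream edge of the body.

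Promoters are shown for 6 members with a region at the start, 4 that hold an E-box and 2 that hold none, and for Hormad1, which has no region within 5000 bp. Each window has 280 bases, 250 before the start and 30 from it, 5′ to 3′ on the gene's strand, from RefSeq. Capitals mark the E-box CACGTG and the E2F site TCCCGCC, searched on both strands, and the E2F site appears below as its reverse complement GGCGGGA.
Ddx4, chr13:112652281-112652560, minus strand: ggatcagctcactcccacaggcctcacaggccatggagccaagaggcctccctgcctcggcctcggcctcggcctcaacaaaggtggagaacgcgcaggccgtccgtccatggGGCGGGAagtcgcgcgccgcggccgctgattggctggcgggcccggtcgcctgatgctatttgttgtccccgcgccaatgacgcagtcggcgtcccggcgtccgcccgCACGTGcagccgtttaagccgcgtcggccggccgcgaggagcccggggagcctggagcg
Tex12, chr9:50561239-50561518, minus strand: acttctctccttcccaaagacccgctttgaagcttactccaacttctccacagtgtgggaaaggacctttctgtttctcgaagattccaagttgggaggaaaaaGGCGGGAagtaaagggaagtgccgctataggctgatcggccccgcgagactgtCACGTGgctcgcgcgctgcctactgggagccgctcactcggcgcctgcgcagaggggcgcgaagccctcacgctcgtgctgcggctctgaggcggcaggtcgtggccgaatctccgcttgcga
Fkbp6, chr5:135350015-135350294, minus strand: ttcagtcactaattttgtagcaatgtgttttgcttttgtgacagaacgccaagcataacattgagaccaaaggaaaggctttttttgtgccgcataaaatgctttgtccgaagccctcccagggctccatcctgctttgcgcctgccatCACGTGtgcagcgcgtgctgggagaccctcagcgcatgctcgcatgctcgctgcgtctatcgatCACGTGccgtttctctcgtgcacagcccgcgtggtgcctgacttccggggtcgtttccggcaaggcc
Brdt, chr5:107330944-107331223, plus strand: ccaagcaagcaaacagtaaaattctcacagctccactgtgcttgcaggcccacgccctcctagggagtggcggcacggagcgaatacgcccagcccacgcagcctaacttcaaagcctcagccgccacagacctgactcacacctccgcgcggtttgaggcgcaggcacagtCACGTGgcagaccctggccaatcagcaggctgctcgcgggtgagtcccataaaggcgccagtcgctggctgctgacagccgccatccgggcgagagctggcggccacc
Dazl, chr17:50293591-50293870, minus strand: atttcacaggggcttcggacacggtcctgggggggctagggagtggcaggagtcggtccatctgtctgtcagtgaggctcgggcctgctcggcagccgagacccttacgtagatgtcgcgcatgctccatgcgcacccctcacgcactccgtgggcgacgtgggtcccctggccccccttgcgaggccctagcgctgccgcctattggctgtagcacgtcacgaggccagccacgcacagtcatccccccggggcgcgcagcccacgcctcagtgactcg
Dpep3, chr8:105979390-105979669, minus strand: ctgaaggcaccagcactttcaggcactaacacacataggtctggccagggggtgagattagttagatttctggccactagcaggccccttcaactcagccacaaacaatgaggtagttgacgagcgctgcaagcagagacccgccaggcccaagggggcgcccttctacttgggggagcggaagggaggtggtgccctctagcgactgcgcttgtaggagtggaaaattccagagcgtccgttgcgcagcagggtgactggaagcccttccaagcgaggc
Hormad1, chr3:95559427-95559706, plus strand: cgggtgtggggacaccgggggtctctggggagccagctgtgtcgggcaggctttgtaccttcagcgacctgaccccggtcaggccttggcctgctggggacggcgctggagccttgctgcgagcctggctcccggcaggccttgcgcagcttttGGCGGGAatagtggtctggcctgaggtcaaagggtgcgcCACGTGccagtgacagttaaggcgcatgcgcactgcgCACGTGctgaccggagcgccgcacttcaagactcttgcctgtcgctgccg
The E2F site stands with the E-box in the Ddx4 and Tex12 promoters, while the Fkbp6 promoter holds the E-box at 2 places.

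An E-box was found in the windows of 7 of the 12 members with a region at the start (58.3%) and of 10 of the 25 without (40.0%). The share was 8.55% of all 17492 protein-coding genes and 7.57% of the 489 with a region at the start. At Ddx4, Taf7l and Slc25a31 the E-box lay outside the region itself. The E2F site was found in 3 of the 12 (25%), in 4 of the 25 (16.0%), in 16.0% of all protein-coding genes and in 10.0% of the 489. E-boxes therefore occurred at promoters of members with the mark and of members without it. Hormad1 has 2 E-boxes and 1 E2F site in its window, and its nearest region lay 120885 bp away. The windows of members with a region at the start had a median observed-to-expected CpG ratio of 0.79, against 0.68 in the 25 members without one, 0.31 in all 489 protein-coding genes with such a region and 0.60 in all 17492 genes, taking the highest value where a gene has several starts. At Tdrd7 the highest value, 1.10, is from a start away from its region, and the start near the region has 0.19. All of these are descriptions of sequence, with no test, and a match is not evidence of binding.

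**Figure D1:**
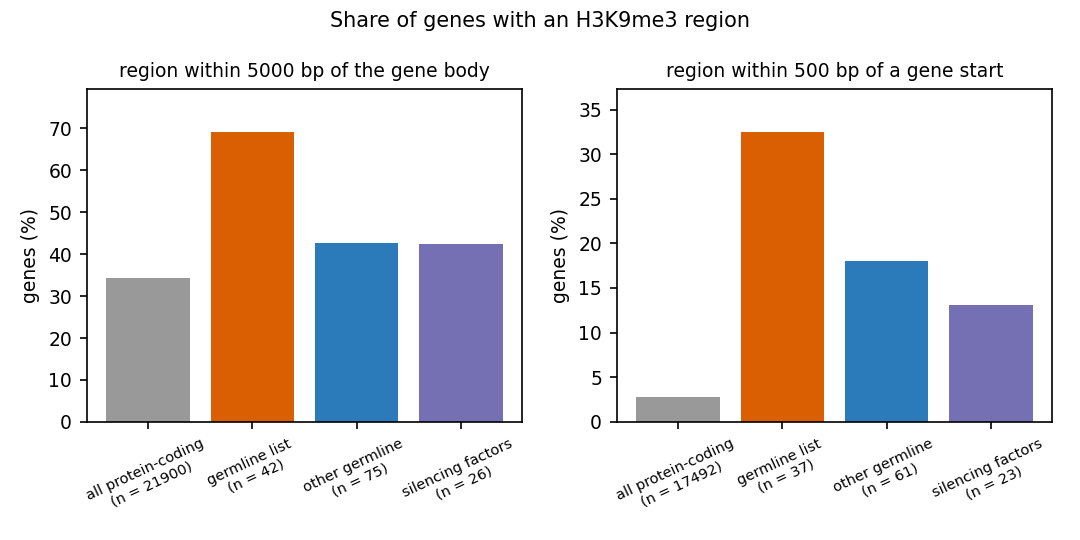
Share of genes (%) with an H3K9me3 region within 5000 bp of the gene body (left) and within 500 bp of a listed start (right). Bars are for all protein-coding genes, the germline list, other germline genes and silencing factors, and n is the number of genes with the annotation needed. The germline list reached 69.0% at left and 32.4% at right, against 34.3% and 2.80% of all protein-coding genes.

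The 12 start regions differed in breadth. Their widths, with both ends counted, ran from 384 to 4286 bp with a median of 1104.5 bp, and 4 reached 3500 bp, at Brdt, Fkbp6, Tdrd7 and Dpep3. Regions of that width made up 16.9% of the 502 regions at starts of protein-coding genes and 5.39% of all regions. The Dpep3 and Fkbp6 regions extended to both sides of the listed start. They ran from -1673 to 1919 bp at Dpep3 and from -1793 to 2168 bp relative to the first of 2 listed starts at Fkbp6. The Fkbp6 gene body reaches upstream of both, to base 135351809, so most of the upstream part lay inside the body. At Brdt most of the region lay upstream, from -3577 to 708 bp. The narrow Tex101 region ended 99 bp before the start, and that of Ddx4 ended 55 bp before its listed start. The Ddx4 gene body reaches upstream of that start, and the region covered its edge at base 112652633. At Tdrd7 the region began 415 bp inside the first of 3 listed starts and ended before the other two, and at Syce3 it began 403 bp inside the second of 2.

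**Figure D2:**
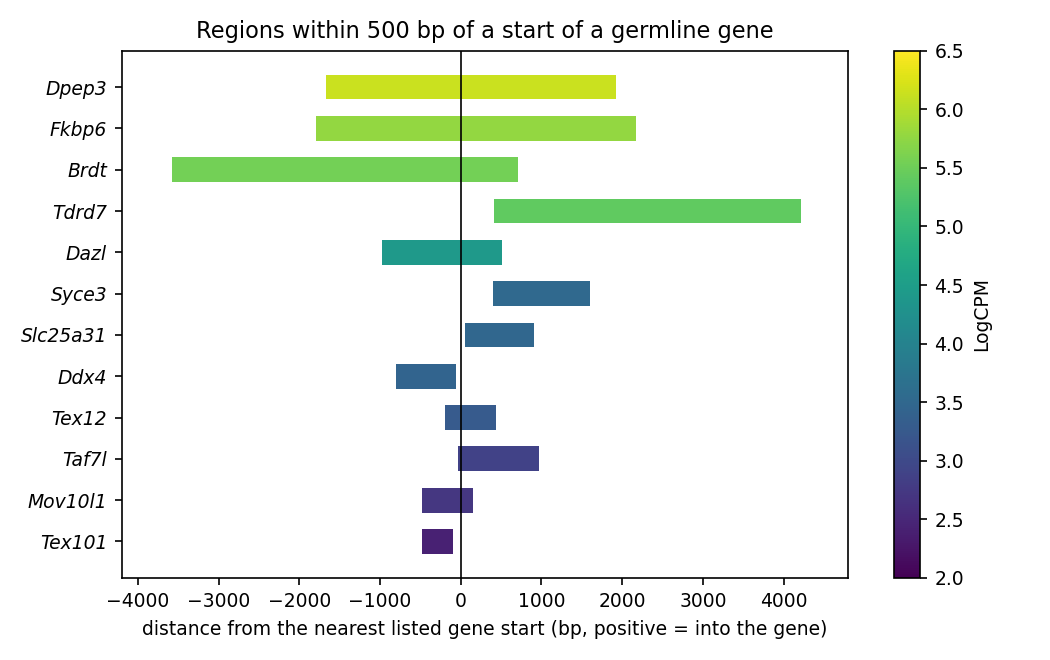
Position of the 12 regions relative to the nearest listed start of the member (bp, positive into the gene), coloured by LogCPM. The 4 broad regions at Dpep3, Fkbp6, Brdt and Tdrd7 also have the highest LogCPM, and 7 of the 12 cover the listed start base. LogCPM is not divided by width. Per length, Brdt (10.8 CPM per kb) and Tdrd7 (11.1) lay below the median of all regions, 11.3, and Dpep3 and Fkbp6 above it.

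Between the genotypes, none of the 59 regions was called, by an FDR below 0.05 in the authors' deposited table, where 192 regions (0.281%) were called across the genome, 131 positive (0.192%) and 61 negative (0.0893%). At an unadjusted p below 0.05 there were 2 of 59 (3.39%), both negative, against 4.74% of all regions. A count of 0 in 59 is near that background and is not a result about these genes. The median log2 fold change was -0.01 over the 59 regions and -0.0058 over all regions, with 31 negative and 28 positive values among the members. No member region reached an absolute log2 fold change of 1, a size reached by 2.15% of all regions. An FDR of 1 was given for 57 of the 59. Precision followed signal. The 9 regions with a LogCPM of at least 5 had log2 fold changes from -0.17 to 0.13 and 95% intervals that together spanned -0.48 to 0.43. At the 30 regions with a LogCPM below 3 the typical error was 0.43 or more, so that only large differences could have been called there.

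**Figure D3:**
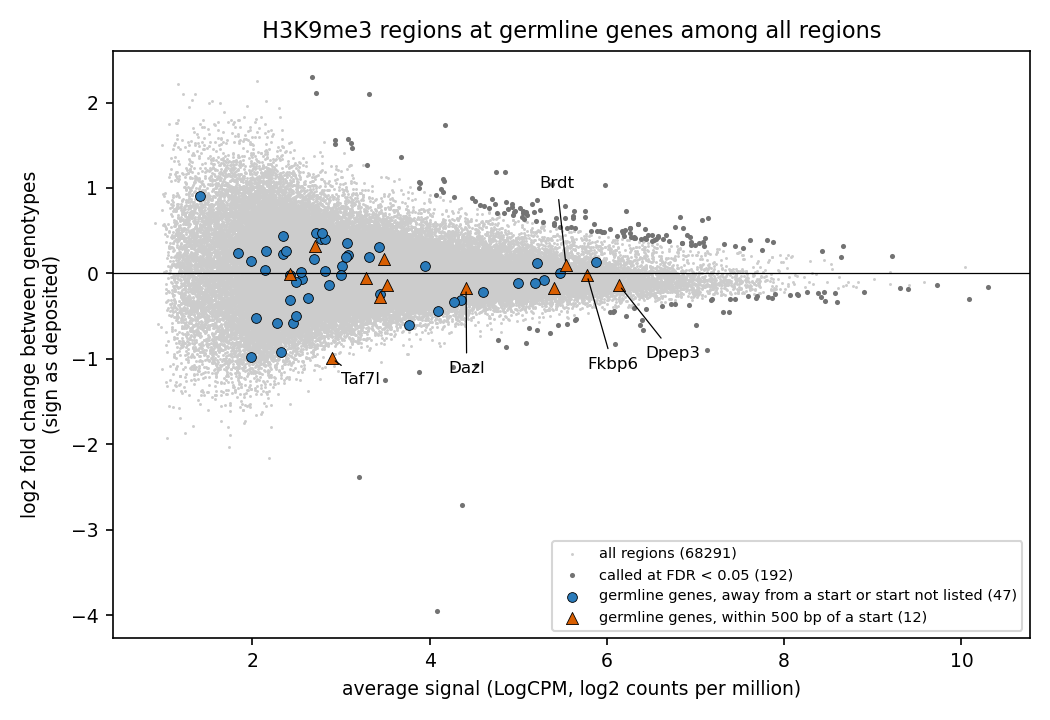
Log2 fold change between genotypes (sign as deposited) against LogCPM for all 68291 regions (grey), the 192 called regions (dark grey) and the 59 germline regions, 12 of them within 500 bp of a start (triangles). None of the germline regions lies among the called ones, and the spread narrows as LogCPM rises.

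Among the start regions 9 were negative and 3 positive, with a median log2 fold change of -0.09. The split was 7 negative with the median of each region's chromosome subtracted and 8 with the median of regions of like LogCPM subtracted, and of the 502 start regions of protein-coding genes 52.2% were negative. The strongest member start region was at Dpep3, a membrane-bound dipeptidase gene of the testis (chromosome 8, 105977500 to 105981092), with a LogCPM of 6.13 over 3593 bp. Per length it had 19.6 CPM per kb, above 97.9% of all regions, and a log2 fold change of -0.13 (interval -0.35 to 0.08, p = 0.238, FDR 1), by the authors' deposited table. The interval holds 0 at 11 of the 12 start regions.

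Taf7l was the exception. This X-linked gene encodes a germ cell paralog of the general transcription factor subunit TAF7. The region over its start (chromosome X, 134475521 to 134476526, 1006 bp) had a LogCPM of 2.90 and the most negative log2 fold change of the list, -0.99 (interval -1.84 to -0.15), where the authors' deposited table gives p = 0.00989 and an FDR of 0.639. It therefore did not pass the test, and the smallest called change at like LogCPM was 1.51. It was also the sparsest of the 59, with 7.40 CPM per kb, and only 13 of the 2552 regions on the X chromosome were sparser. The median was 10.1 CPM per kb on X and 11.4 on the autosomes, and the X chromosome had a median log2 fold change of -0.08.

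Of the 14 genes for germline RNA-binding proteins and the piRNA pathway, which silences transposons in germ cells, 11 had a region and 5 of 12 had one at the start. Their 26 regions split into 14 negative and 12 positive, with a median log2 fold change of -0.01. Dazl encodes an RNA-binding protein needed for germ cell development. The region over its start (chromosome 17, 50293108 to 50294593, 1486 bp) had a LogCPM of 4.41, and the authors' deposited table gives a log2 fold change of -0.17 (interval -0.62 to 0.28, p = 0.435). A pair of weaker regions lay past the end of the gene (0.23 and 0.22). The Ddx4 region, at the gene for the germ cell helicase VASA (chromosome 13, 112652365 to 112653107, 743 bp), had a LogCPM of 3.44 and -0.27 (interval -0.95 to 0.40, p = 0.412 from the authors). Fkbp6, a co-chaperone gene of the piRNA pathway, had a LogCPM of 5.77 over 3962 bp (chromosome 5, 135347876 to 135351837), and the authors' deposited table gives -0.02 (interval -0.27 to 0.24, p = 0.931). Of the start regions with a LogCPM of at least 5, that at Fkbp6 lay closest to 0.

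The Tudor domain genes, whose products bind methylated PIWI proteins, differed in where the mark lay. Tdrd7 had a region of 3800 bp near its first start (chromosome 4, 45965750 to 45969549) with a LogCPM of 5.40 and -0.17 (interval -0.48 to 0.14, p = 0.235 from the authors). Tdrd9, a helicase gene, had 5 regions inside the body and 1 past its end, the nearest 23249 bp from the start. The densest of them (chromosome 12, 112002367 to 112004553) was 2187 bp wide, with a LogCPM of 5.29, 17.8 CPM per kb and a log2 fold change of -0.07 (interval -0.38 to 0.23, p = 0.643 from the authors). Tdrd9 also held the most positive value of the list, 0.90, at a region of 248 bp with a LogCPM of 1.41, where the interval ran from -0.93 to 2.74. Both regions of Tdrd1 lay in the body, the stronger of 893 bp with a LogCPM of 3.44 and -0.24 and the other with 0.40. That of Tdrd5, 472 bp wide, lay past the end of the gene (-0.57, LogCPM 2.28).

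Mov10l1, the helicase that starts piRNA processing, carried 6 regions. The 1 over its start (chromosome 15, 88982521 to 88983149) was weak, with a LogCPM of 2.71 and a log2 fold change of 0.32 (interval -0.52 to 1.17, p = 0.489 from the authors), and it overlapped the neighbouring gene Mlc1. A cluster of 5 lay 48943 bp and more into the gene, the strongest (89031937 to 89033833, 1897 bp) with a LogCPM of 5.21 and 19.5 CPM per kb. Its log2 fold change in the authors' deposited table was 0.13 (interval -0.18 to 0.43, p = 0.427). Mael, a piRNA factor gene, had 1 region of 777 bp in its body (0.36, LogCPM 3.07). Asz1, a gene for a mitochondrial piRNA factor, had 3 in its body (0.26, 0.40 and -0.01), the strongest the last, of 698 bp at a LogCPM just above 3. The single Piwil4 region, 497 bp wide and 1901 bp from a start, had -0.98 at a LogCPM of 1.98 (interval -2.32 to 0.37, p = 0.122 from the authors). No region lay within 5000 bp of Piwil1, Piwil2 or Tdrd6.

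The synaptonemal complex, which zips homologous chromosomes together in meiosis, was represented by 7 genes, 4 of them with a region. Their 12 regions split into 9 negative and 3 positive, with a median of -0.12. Sycp1, the gene of the transverse filament, held 7 regions, all in its body and at least 5693 bp from the start. In order along chromosome 3 their log2 fold changes were -0.02, 0.19, -0.60, -0.34, -0.92, -0.44 and 0.03. The third of these (102854867 to 102855864, 998 bp, LogCPM 3.76) had an interval of -1.15 to -0.06, and with p = 0.0302 and FDR 0.924 from the authors it did not pass the test. The strongest of the 7 was the fourth, of 1438 bp with a LogCPM of 4.27. The values of largest size among the 7 were thus negative, and the median of chromosome 3 was -0.01. Regions of 1 gene share their locus and are not replicates.

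Syce3, a central element gene, had a region of 1203 bp near a start (chromosome 15, 89408658 to 89409860) with a LogCPM of 3.52 and -0.13 (interval -0.68 to 0.41, p = 0.691 from the authors). The Tex12 region, at another central element gene, covered the start (chromosome 9, 50560834 to 50561461), overlapped the adjacent gene Il18 and had a LogCPM of 3.28 with -0.05 (interval -0.73 to 0.62, p = 0.913 from the authors). Syce1 had 3 weak regions in and near the gene (-0.10, 0.24 and -0.58), the strongest the first, of 556 bp at a LogCPM of 2.49. Sycp2, Sycp3 and Syce2 had none, and at Syce2 the nearest region was 221051 bp away, the farthest of any member.

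The meiotic chromosome axis and cohesin hold sister chromatids and organise the loops along them. Of 6 genes, 3 had regions and 0 had one within 500 bp of a listed start, where the share of protein-coding genes was 2.80%. The count of 0 rests on the listed starts, and the Rad21l region below covered the upstream edge of its gene body. The 6 regions were narrow, from 295 to 676 bp, with LogCPM values from 2.04 to 3.31. Per length they ran from 9.42 to 14.7 CPM per kb, on both sides of the median of all regions, 11.3. Hormad2, on chromosome 11, had 0.04, 0.19 and 0.26, all below that chromosome's median of 0.28, and its strongest region (0.19) was 676 bp wide at a LogCPM of 3.31. Beside Smc1b, in the neighbouring gene Ribc2, a pair of regions had -0.50 (497 bp, LogCPM 2.49) and -0.52. The Rad21l region (0.02, 600 bp, LogCPM 2.55) lay 1950 bp from the listed start. That start lies inside the gene body, and the region covered the upstream edge of the body, at base 151670622. Hormad1, Stag3 and Rec8 had none, although the nearest region to Stag3 was 5393 bp from the gene.

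Of the 5 recombination genes, Dmc1 and Spo11 had regions. DMC1 is the recombinase that pairs homologous DNA in meiosis, and SPO11 makes the breaks that it repairs. In the body of Dmc1 (chromosome 15, 79581562 to 79585207) a region of 3646 bp had a LogCPM of 5.47 and, in the authors' deposited table, a log2 fold change of 0.0012 (interval -0.31 to 0.31, p = 1). A small region beside it had 0.43 at a LogCPM of 2.35, and the Spo11 region, 680 bp wide, had 0.17 at 2.70. Mei1, Tex11 and Tex15 had none.

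Of the genes for transcription and entry into meiosis, Brdt, Taf7l and Sohlh2 had 1 region each and Stra8 had none. Brdt encodes a testis bromodomain protein that binds acetylated histones. Its region was the widest of the list (chromosome 5, 107327617 to 107331902, 4286 bp) and had a LogCPM of 5.54, and the authors' deposited table gives 0.10 (interval -0.16 to 0.36, p = 0.509). Sohlh2, a transcription factor gene of early germ cells, had 0.47 in its body at a LogCPM of 2.72 over 626 bp.

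All 6 of the other germ cell genes had a region, 9 in all, of which 5 were negative and 4 positive. Slc25a31 encodes an ADP/ATP carrier of germ cells. Its region began 57 bp inside the start (chromosome 3, 40708928 to 40709774) and had a LogCPM of 3.48 with 0.17 (interval -0.51 to 0.84, p = 0.614 from the authors). Upstream of Tex101, the gene of a germ cell surface protein, the region nearest the start (chromosome 7, 24672149 to 24672532) had a LogCPM of 2.42 with -0.0025 (interval -1.07 to 1.06, p = 1 from the authors), and a second one had -0.29. The densest region of the whole list lay deep in Tex14, a gene for the bridges between germ cells (chromosome 11, 87476521 to 87479464), 2944 bp wide, with 20.0 CPM per kb and a LogCPM of 5.88. Its log2 fold change in the authors' deposited table was 0.13 (interval -0.13 to 0.39, p = 0.297). With the median of chromosome 11 subtracted its value was -0.14. Stk31 had a dense region in its body (1860 bp, 17.2 CPM per kb, LogCPM 5.00) with -0.12 (interval -0.49 to 0.26, p = 0.529 from the authors) and a weaker one at -0.14. Rpl10l, a retrogene of a ribosomal protein, had a region of 704 bp upstream at 0.47 (LogCPM 2.78). A weak region beside that of Tex14 had 0.14.

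**Figure D4:**
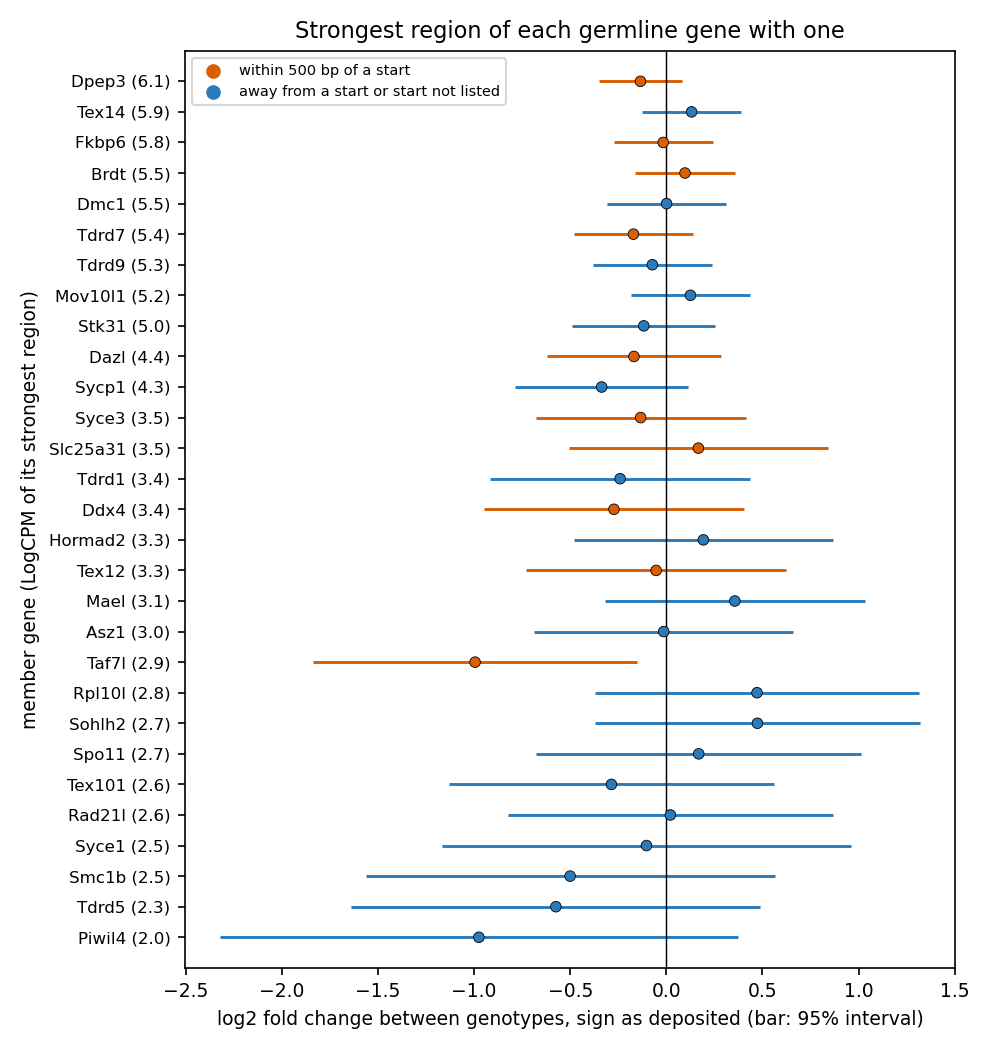
Log2 fold change (sign as deposited) with its 95% interval for the strongest region of each of the 29 members that have one, ordered by LogCPM. The interval holds 0 in 28 of the 29, the exception being Taf7l, and bars widen towards weak regions.

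In all, 69.0% of the members had a region, against 34.3% of 21900 protein-coding genes. The members are longer than most genes. They had a median length of 39390.5 bp and protein-coding genes 17146 bp, and of the 6917 protein-coding genes within 2-fold of the members' median 38.0% had a region. Among the members themselves, those with a region had a median length of 43663 bp and those without 28187 bp. The typical member region was no stronger than others, with a median LogCPM of 2.90 against 3.08 over all regions and 10.98 against 11.3 CPM per kb. Regions at starts had a median of 13.5 CPM per kb, against 10.8 for the other 47 member regions and 11.8 for start regions of protein-coding genes. No error can be given for a level, so neighbours in these orders were not tested.

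A second list of 75 germline genes outside the first gave lower shares, with 42.7% having a region and 11 of 61 (18.0%) a region at the start. The 2 lists are not matched for length. Median lengths in the second were 35835 bp with a region and 11095 bp without, against 43663 and 28187 bp in the first. The 11 genes with a region at the start were Spata22, Meiosin, Figla, Tdrkh, Gtsf1, Henmt1, Boll, Tex13b, Tuba3a, Tuba3b and Acrv1. Tuba3a and Tuba3b are close copies, between which reads could have been split. Of the second list's 89 regions 0 were called in the authors' deposited table, against the background of 0.281%. An unadjusted p below 0.05 was given for 6 (6.74%), 2 positive and 4 negative. The median log2 fold change was 0.06, and -0.0033 without chromosomes 11 and 16. The smallest p of the list, 0.00423, was that of a region in Morc1, a transposon silencing gene on chromosome 16, with 0.74 and an FDR of 0.438, where the median of that chromosome was 0.32. Boll, a Dazl relative, had -0.46 (interval -0.83 to -0.09, FDR 0.551) at a region of 1949 bp in its body. In Spata16 a weak region (LogCPM 1.75) had -1.89 with an FDR of 0.552, and upstream of Spata22, on chromosome 11, a region had 0.63 with an FDR of 0.765. The region near the start of Acrv1, an acrosome gene, had -0.32 (interval -0.63 to -0.01, p = 0.0472), and that in Hsf2bp had -0.21 (interval -0.42 to 0.0051, p = 0.0485), both with FDR 1 by the authors. Of the regions on this list, those of highest density were a pair in Ankrd31 (21.6 and 19.0 CPM per kb, log2 fold changes -0.16 and -0.07), a gene for meiotic break sites, and 1 of 162 bp in Tdrkh (18.8 CPM per kb, -0.05).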

How the data were processed

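The data are 1 table of the authors' comparison of Tex19.1-/- and Tex19.1+/- H3K9me3 libraries. Per the file headers, the authors deposited LogCPM (average log2 CPM from read counts), a log2 fold change, its p-value and an FDR for each region. Tools in the submitters' processing notes are edgeR (version not given), Bowtie2 2.2.6, bedtools 2.25.0 and HOMER 4.8, and the build is mm10. How regions were defined, which libraries entered and any use of input are not given in those sources. Edges of regions are printed as deposited.

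From these values, Python 3.11.15 with pandas 2.3.3 and scipy 1.17.1 computed the following. Regions were matched to RefSeq gene bodies (GRCm38.p6) extended by 5000 bp. All 42 members and 71 of 75 other germline genes matched by symbol, and 4 by synonym. CPM per kb is the CPM divided by the width. A standard error was taken as the size of the log2 fold change over the normal deviate of its p-value, for the 19017 regions with a deviate of 1 or more, and its median in LogCPM bins of 0.5 was used for each region, with an interval of 1.96 errors on either side. Recomputed Benjamini-Hochberg values differed from the deposited FDR by at most 3.2e-05. No further test was made. The calculations were tested on simulated data. Simulated p-values came from the same normal deviate, so how well the derived error holds for the deposited p-values was not tested. Members, lists and tests were chosen with earlier results of these data known. Every member with a region is named, and full values are given for regions within 500 bp of a start, the 5 densest, the 5 widest and those with an unadjusted p below 0.05. On the other lists, genes with a region at the start, the 3 densest regions and regions with an unadjusted p below 0.05 are named.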

Additional observations from a re-analysis of the deposited data

How the results depend on the processing

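No member region was called under any alternative tried, where the share over all regions was 0.281% in the main setting. The alternatives were gene bodies alone, extensions of 2000 or 10000 bp, an FDR below 0.01 and Holm adjustment. Benjamini-Hochberg adjustment was also made without chromosomes X and Y or over regions of at least 1000 bp. Gene bodies alone, the 2000 bp extension, the stricter FDR and Holm adjustment could not have added a call, because they only narrow the regions or the threshold. The same held for the other germline genes. Over all regions the 192 calls became 101 with the FDR threshold at 0.01 and 48 by Holm's method, 193 outside chromosomes X and Y, and 287 over regions of at least 1000 bp. With regions of a LogCPM of at least 4 alone, the members had 15 regions in place of 59, at 11 genes in place of 29. A region over the listed start base itself was found in 7 members in place of 12. The members' median log2 fold change lay between -0.12 and -0.01 over all alternatives. That of the other germline genes lay between -0.02 and 0.06, negative with 1 region per gene and without chromosomes 11 and 16. With the chromosome median subtracted 8 of the 59 member values changed sign, and 4 with the median of like LogCPM subtracted. No paired analysis was possible because the table has no column of a single library, and for the same reason no replicate was left out. Weak regions limit the rest: 30 of the 59 had a LogCPM below 3.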

Other observations

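Factors that silence germline genes in embryonic stem cells were examined in the same way, in a list that also holds other chromatin silencing factors. Of 26 genes, 11 (42.3%) had a region, against 34.3% of protein-coding genes, and 6 of the 11 had regions only in the flanks. These shares are not matched for length. The median length was 43957 bp for the genes with a region, 26543 bp for those without and 17146 bp for protein-coding genes. They held 21 regions, of which 0 were called in the authors' deposited table, against 0.281% of all regions. At an unadjusted p below 0.05 there were 2 (9.52%), 1 positive and 1 negative, against 4.74% of all regions. A region lay at the start of 3 of 23 genes (13.0%), against 2.80% of protein-coding genes, and no test was made of these shares. Atf7ip, the gene of a partner of SETDB1, had 3678 bp over its start (chromosome 6, 136515959 to 136519636) with a LogCPM of 5.85 and a log2 fold change of 0.07. E2f6 had 355 bp at a LogCPM of 1.82 (-0.12), and Hdac2, a histone deacetylase gene, had 501 bp at 2.53 (-0.03). In the body of Hdac2 a further region had 0.74 (p = 0.0475 and FDR 1 from the authors). Downstream of Ring1, a Polycomb ubiquitin ligase gene, a region of 5667 bp (chromosome 17, 34012183 to 34017849) had -0.26 (p = 0.00956 and FDR 0.629 from the authors). The densest regions of this list lay over Ring1 (20.2 CPM per kb, log2 fold change -0.23), in Smchd1 (20.1 CPM per kb in 119 bp, -0.32) and past the end of Dnmt3a (17.5 CPM per kb, -0.16).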
